A study of Mus musculus with 4 samples.

Results

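The replication-dependent histone genes were taken as the rows whose symbol begins with Hist1h, Hist2h, Hist3h or Hist4h, a rule that 68 of 23337 gene symbols met. Of these, 58 had at least 20 counts in at least 1 of 4 libraries: 6 of 6 H1 genes, 13 of 18 H2A genes, 17 of 19 H2B genes, 10 of 12 H3 genes and 12 of 13 H4 genes. They are called members here.

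Total RNA was measured in lymphatic endothelial cells of mouse embryos at day 14.5, with 1 library for each combination of genotype and culture state. Cells positive for LYVE1 and for the endothelial cadherin VECAD and negative for the leukocyte marker CD45 were sorted from the dorsal anterior part of the embryos, and the cells of a whole litter were pooled for each genotype. Part of each pool was lysed at once, and the rest was kept on a layer of OP9 cells for 7 days, stromal feeder cells of the mouse that help blood cells to form. Added cytokines were IL3, SCF and FLT3L, at 100 ng/ml each, and LYVE1 and VECAD positive cells were then sorted again. The labels call the mutant homozygous and a deletion, and name in the title an enhancer bound by GATA2. In the published study that enhancer belongs to Prox1, the gene of the transcription factor that specifies lymphatic endothelium, and both genotypes went through the same sorts and culture. The second sort had no stated exclusion of CD45.

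Most mRNAs end in a poly(A) tail, but mRNAs of replication-dependent histone genes end in a conserved stem-loop that the protein SLBP binds. They accumulate in S phase, when new DNA has to be packed into nucleosomes, and are destroyed when replication ends. H2A, H2B, H3 and H4 form the nucleosome core, and H1 binds the linker DNA between cores. Libraries made from total RNA can hold these tail-less transcripts, which selection on poly(A) would lose.

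The stem-loops are shown first because they define the family. The search covered the GENCODE vM21 transcripts of genome build GRCm38, which is the assembly mm10. A stem-loop of 16 nt was found in 39 of 58 members, between 21 and 54 nt after the stop codon. In members only the stretch after the stop codon was searched. In other genes, searched over whole transcripts, it was found in 40 of 55271 (0.0724%). Only 43 members have an annotated transcript that runs more than 20 nt past the stop codon, so for the remainder, Hist1h4k and Hist1h2bn among them, the annotation does not hold this stretch. No stem-loop was found either in Hist1h1a, Hist1h2bc, Hist2h2be and Hist2h3b, whose annotated transcripts run 48, 742, 2192 and 37 nt past the stop codon. Capitals mark the stem-loop, read 5′ to 3′, with up to 5 bases on each side:
Hist1h1c, chr13:23739512-23739527, plus strand: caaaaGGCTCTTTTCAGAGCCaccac
Hist1h2ab, chr13:23751572-23751587, plus strand: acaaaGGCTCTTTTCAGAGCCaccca
Hist1h3e, chr13:23561903-23561918, minus strand: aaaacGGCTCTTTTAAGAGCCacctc
Hist1h4d, chr13:23581950-23581965, plus strand: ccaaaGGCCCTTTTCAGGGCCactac
Hist1h4b, chr13:23757366-23757381, plus strand: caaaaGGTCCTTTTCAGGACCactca
Hist1h4a, chr13:23760800-23760815, minus strand: ccaaaGGCCCTTCTCAGGGCCgccca
The 39 stem-loops took 8 forms. In all 28 members outside H4 that held one the stem began GGCTC, and in 0 of 11 H4 members, whose stems began GGCCC or GGTCC. The commonest form, that of Hist1h1c and Hist1h2ab, was found in 20 members, and that of Hist1h3e in 6.

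Many core histone genes share long stretches of coding sequence, which bears on their counts. A stretch of H4 coding sequence is shown for Hist1h4k, its near copy Hist1h4j, the highest H4 gene Hist1h4d, and Hist1h4n beside Hist1h4m, which had 1 count in all. It runs from base 10 to base 69 of the coding sequence, and capitals mark bases unlike the commonest base at that position over 13 H4 genes, which vary at 21 of 60 positions:
Hist1h4k, chr13:21750437-21750496, minus strand: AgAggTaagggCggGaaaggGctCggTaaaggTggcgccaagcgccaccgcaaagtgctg
Hist1h4j, chr13:21735105-21735164, plus strand: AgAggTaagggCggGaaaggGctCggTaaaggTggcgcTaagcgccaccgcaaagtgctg
Hist1h4d, chr13:23581611-23581670, plus strand: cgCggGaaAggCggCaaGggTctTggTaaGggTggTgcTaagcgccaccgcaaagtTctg
Hist1h4n, chr13:21832090-21832149, minus strand: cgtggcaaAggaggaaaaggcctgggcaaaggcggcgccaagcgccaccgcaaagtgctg
Hist1h4m, chr13:21811793-21811852, plus strand: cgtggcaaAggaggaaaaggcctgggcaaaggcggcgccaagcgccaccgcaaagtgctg
Hist1h4n and Hist1h4m are alike over this stretch. The 12 H4 members had 12 distinct coding sequences with pairwise identities of 85.3% to 98.4%. Over 57 members with a coding sequence, a median of 64.3% of all windows of 75 nt, the length of a read, also occurred in a transcript of another gene. The share was above 50% in 38 members and 0% in 7, which are Hist1h1a, Hist1h1b, Hist1h1t, Hist2h2bb, Hist2h2be, Hist2h4 and Hist4h4. The deposited tables list pairs with more than 1 alignment in a class of their own, and how they were handled otherwise is not stated. Levels of members with many shared windows are therefore uncertain. A pair covers more than 1 window, so these shares overstate the loss. The 10 genes that matched the rule but missed the minimum were Hist1h2aa, Hist1h2ao, Hist1h2ap, Hist1h2bq, Hist1h2br, Hist1h4m, Hist2h2aa1, Hist2h2aa2, Hist2h3c1 and Hist2h3c2. All of them except Hist1h2aa shared 100% of their windows, and Hist1h2ao, Hist1h2ap, Hist1h2bq, Hist1h2br and Hist2h2aa2 were listed at 0 in every library.

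Gene counts were 3987150 in the wild type and 7943587 in the mutant library before culture, and 1694669 and 3931557 after culture. The share of unique alignments outside annotated genes was 89.3%, 85.8%, 66.7% and 74.2% in the same order. In olfactory and vomeronasal receptor genes, used as a measure of reads unrelated to expression, counts per kb of coding sequence were 6.66 and 8.35 before culture and 0.535 and 1.62 after it. These rates are not scaled to library depth, so they do not rank the libraries by background. Scaled to exon length, counts were under 3 times this background in 5 members before culture and in 4 after it. With 1 library per group there is no replicate check, every comparison is between libraries, and no p-value was computed. All intervals are at 95% and cover counting error alone. They hold no spread between samples, and without molecular identifiers pairs cannot be taken as separate molecules. Lyve1 and Flt4, lymphatic receptor genes, had at least 3496 counts in every library, while Pdpn, another lymphatic marker, had 435 and 915 counts before culture and 0 and 8 after it. Prox1 had 2526 and 4483 counts before culture and 284 and 459 after it. These marker counts are not scaled, and the libraries differ in depth as given above, so they do not compare levels between libraries.

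Levels are in CPM, counts relative to library size, after scaling by TMM, a trimmed mean of log ratios. The 58 members summed to 1713 CPM in the wild type and 2396 CPM in the mutant library before culture, and to 2935 and 2716 CPM after culture. The wild type library before culture was the lowest of the 4. The sums rested on 8535, 22078, 4034 and 9084 counts, which were 0.214%, 0.278%, 0.238% and 0.231% of the gene counts. H1 genes held 37.2%, 34.4%, 40.6% and 42.7% of these histone counts. In bulk RNA, fewer cells in S phase and less histone mRNA per cell cannot be told apart.

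**Figure D1:**
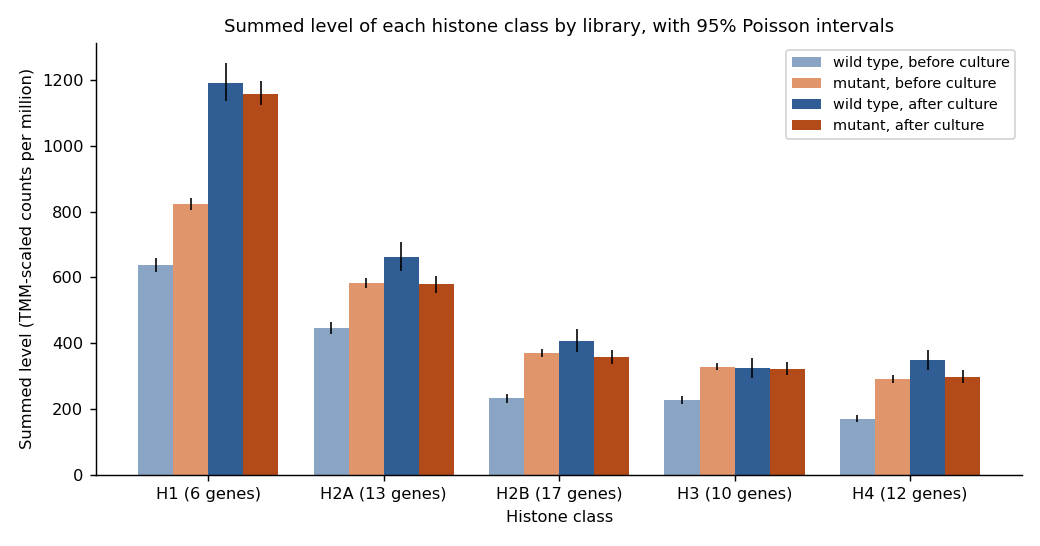
Summed level of each histone class (bars, TMM-scaled CPM) in the 4 libraries, with 95% Poisson intervals as lines. In every class the wild type library before culture has the lowest bar, and H1 has the highest sums, from 637 to 1192 CPM. As shares of gene counts, H2A and H3 were instead lower in both libraries after culture than in the wild type library before it.

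Levels per kb of coding sequence differed widely within each class. The counts are per gene, but the divisor leaves out annotated exon outside the coding sequence. Reads from such exon can raise these levels in members with long transcripts, such as Hist1h1c and Hist1h4d. Hist1h4k and Hist2h2bb, by contrast, are annotated with coding sequence alone. Part of the spread within a class can thus come from transcript length, and levels per kb of exon are not given. Hist1h1c, a linker histone gene also active outside S phase, was the highest H1 gene in every library, at 353 and 445 CPM per kb before culture and 779.9 and 677 after it. Among H4 genes Hist1h4d was highest in every library, with 182 and 274 CPM per kb before culture and 450.0 and 322 after it, against H4 medians of 29.6, 59.1, 59.5 and 62.3. Hist2h2bb was the highest H2B gene in every library, between 148 and 197 CPM per kb. The highest H2A gene was Hist1h2ai, Hist1h2ab or Hist1h2af, depending on the library, and the highest H3 gene was Hist1h3b before culture and Hist1h3e after it. Hist1h1t, a linker histone gene of the male germ line, was the lowest H1 gene in every library, with 22, 54, 1 and 5 counts.

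The first comparison asks how the deletion bears on cells taken directly from the embryo. Before culture, histone mRNA was higher in the mutant library than in the wild type library, and the difference ran through nearly the whole family. The summed counts had a mutant to wild type fold of 1.4 (interval 1.36 to 1.43), and 54 of 58 members (93.1%) had a fold above 1, against 55.2% of all 18934 genes measured. The whole interval lay above 1 in 43 members (74.1%) and below 1 in 0, against 17.6% and 8.54% of all genes, whose median fold was 1.03. With total counts as the scale the summed fold was 1.3, and with background subtracted 1.24. The 4 members with a fold below 1 were Hist1h2ah, Hist1h2bp, Hist1h4i and Hist2h2be, with folds of 0.933, 0.946, 0.879 and 0.773, and their intervals all held 1.

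To be called, a gene had to have both bounds of its interval past 2-fold. By that rule 0 members were called in either direction, beside 0.0158% of all genes called higher and 0.0475% called lower. At a threshold of 1.5-fold, 6 members (10.3%) were called higher and 0 lower, beside 0.259% and 0.37% of all genes. These 6 were the H4 genes Hist1h4k, Hist1h4b and Hist1h4f and the H2B genes Hist1h2bn, Hist1h2bl and Hist1h2bj. With total counts as the scale 3 were called higher at that threshold, and 5 with median-of-ratios factors or with background subtracted. The shares of all genes above hold for TMM scaling, and none is given for these other scalings. Of the 6, Hist1h4b, Hist1h4f, Hist1h2bl and Hist1h2bj are named after their values were seen.

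Hist1h4k, which encodes H4, had 80 counts in the wild type and 375 in the mutant library before culture, and 32 and 99 after culture. Its levels were 16.1 CPM (12.7 to 20), 40.7 CPM (36.7 to 45), 23.3 CPM (15.9 to 32.9) and 29.6 CPM (24.1 to 36) in that order, so the mutant library before culture was the highest and stood clear of the 3 others. Its fold before culture, 2.54 (1.99 to 3.27), was the highest of all members. Hist1h2bn, which encodes H2B, had 87, 361, 64 and 139 counts, or 17.5, 39.2, 46.6 and 41.6 CPM. For this gene the wild type library before culture was the low one and the 3 others had overlapping Poisson intervals. Its fold before culture was 2.24 (1.77 to 2.87). Below Hist1h4k, the next folds in rank were 2.43 (1.61 to 3.81) for Hist1h2bl, from 28 and 126 counts, and 2.3 (1.66 to 3.25) for Hist1h4b, from 46 and 196 counts. Both were above the fold of Hist1h2bn, whose lower bound was the next highest after that of Hist1h4k.

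**Figure D2:**
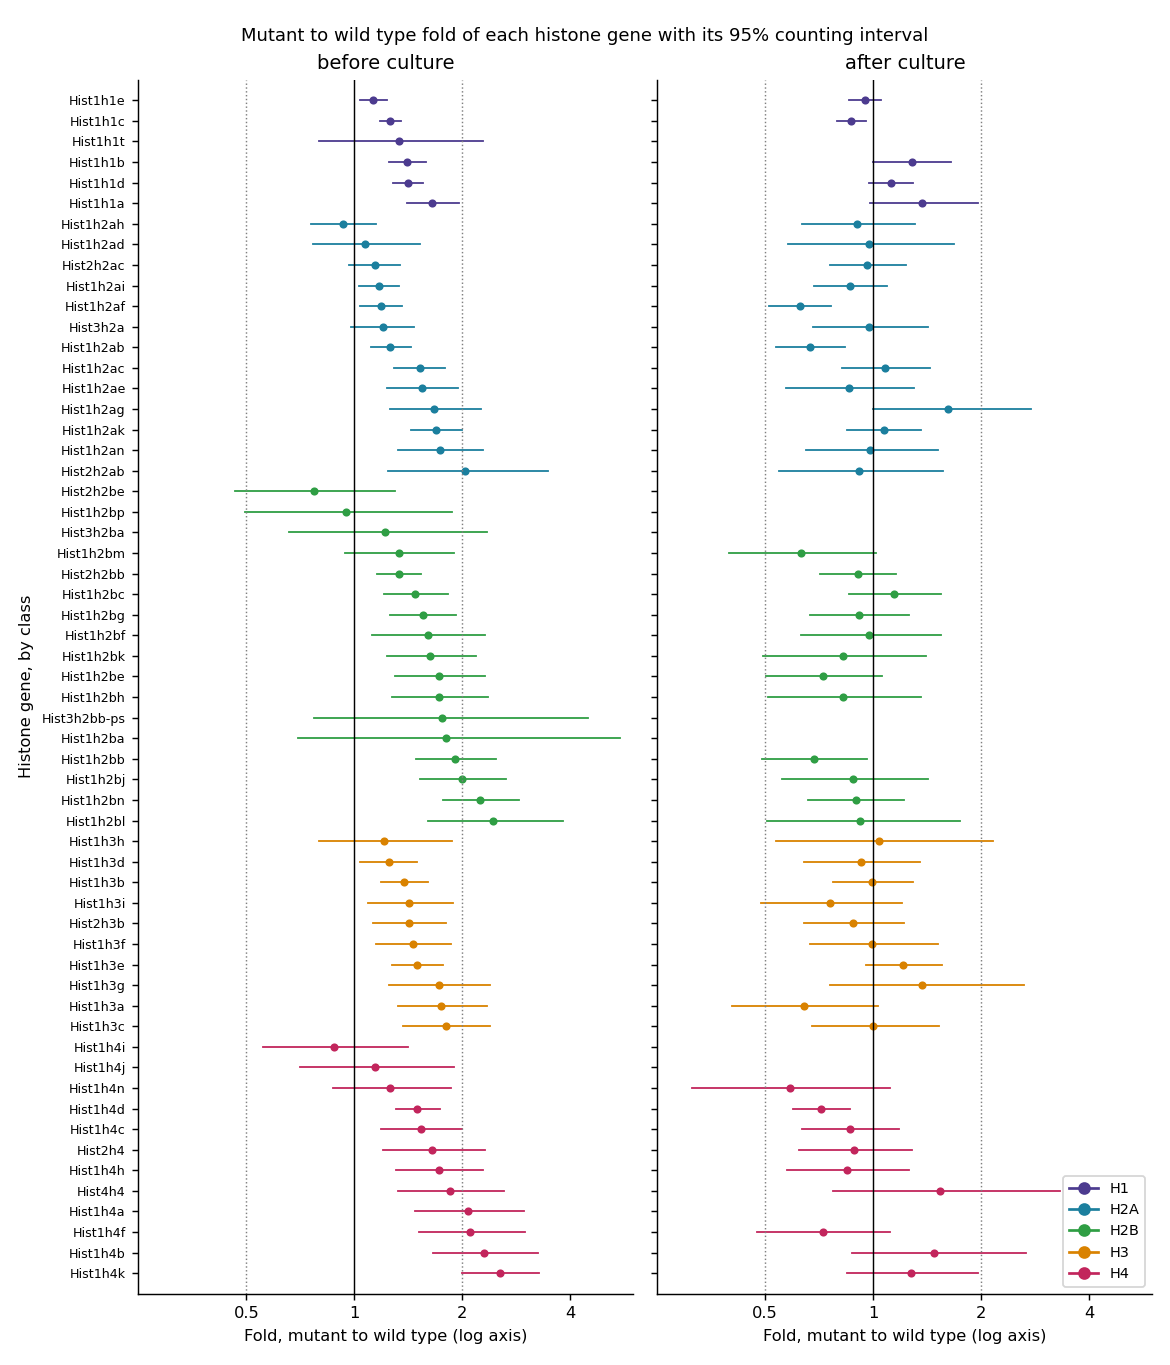
Mutant to wild type fold (log axis) of each member before and after culture, with its 95% counting interval as a line. Members are grouped by class and ordered by fold before culture. Dotted lines mark 0.5 and 2. Before culture 54 of 58 points lie right of 1, and after culture 35 of the 49 points shown lie left of it.

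The classes differed in the size of the fold. Before culture it was 1.71 (1.58 to 1.85) for the summed H4 genes, 1.6 (1.5 to 1.71) for H2B, 1.45 (1.35 to 1.55) for H3, 1.3 (1.24 to 1.37) for H2A and 1.29 (1.24 to 1.35) for H1. The intervals of H4 and H2B overlap each other and lie above those of H2A and H1. The ratio of H4 to H2A counts within a library, which does not depend on scaling, was 0.382 and 0.501 in the wild type and mutant libraries, a fold of 1.31 (1.2 to 1.44). The ratio of H2B to H2A counts was 0.519 and 0.637, a fold of 1.23 (1.13 to 1.33). The ratio of H1 to core histone counts was 0.592 and 0.524, a fold of 0.884 (0.84 to 0.932).

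Other members, with the most counts in their classes for the most part, are given next. Hist1h1c had 1123 and 2619 counts before culture, a fold of 1.26 (1.18 to 1.35), and Hist1h1e had 871 and 1821, a fold of 1.13 (1.04 to 1.23), or 0.987 (0.909 to 1.07) with background subtracted. Hist1h1d had 593 and 1541 counts, a fold of 1.41 (1.28 to 1.55). Hist1h1a and Hist1h1b, linker histone genes tied to S phase, had folds of 1.65 (1.4 to 1.96) and 1.4 (1.25 to 1.58). Of the leading H2A genes, Hist1h2ai, Hist1h2ab and Hist1h2af had folds of 1.17, 1.26 and 1.19, with lower bounds of 1.03, 1.11 and 1.04. Hist1h2ah, with 149 and 257 counts, had one of the lowest upper bounds, 1.15. Of the leading H3 genes, Hist1h3b, Hist1h3e and Hist1h3d had folds of 1.38, 1.5 and 1.25. Of the leading H4 and H2B genes, Hist1h4d had a fold of 1.5 (1.31 to 1.73), Hist1h4c of 1.53, Hist2h2bb of 1.33, Hist1h2bc of 1.48 and Hist1h2bg of 1.55.

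Lists of related processes had smaller summed folds. The 29 genes of the S phase DNA replication list, such as the helicase gene Mcm3, summed to 2177 and 2538 CPM before culture, a fold of 1.17 (1.14 to 1.19), with 27 of 29 folds above 1 and 0 genes called in either direction. The ratio of histone to S phase counts within a library was 0.787 and 0.944, a fold of 1.2 (1.16 to 1.24) that does not depend on scaling. The ratio of histone to stromal counts went the other way, at 0.503 and 0.442, a fold of 0.879 (0.852 to 0.906). Relative to S phase counts, Hist1h4k had a fold of 2.18 (1.71 to 2.77), and Hist1h2bn of 1.93 (1.52 to 2.44). The 18 G2 and mitosis genes had a summed fold of 1.03 (1.01 to 1.05). The 17 genes of histone mRNA processing and transcription had a fold of 1.2 (1.16 to 1.24) with 12 above 1. Of these, Slbp, the gene of the stem-loop binding protein, had 278 and 678 counts, a fold of 1.32 (1.15 to 1.52), while Npat, the gene of a coactivator of histone transcription, had 365 and 674, a fold of 0.999. The 11 replication-independent variants measured, which are used outside S phase, had a fold of 1.19 (1.15 to 1.23) with 10 above 1, and the 16 chaperone genes a fold of 1.06 (1.04 to 1.08) with 15 above 1. In these 5 lists 0 genes were called at 2-fold before culture.

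Markers of other cells also differed between the libraries before culture. The 11 stromal genes summed to 3403 and 5419 CPM, wild type first, a fold of 1.59 (1.56 to 1.62) with 11 of 11 intervals above 1, and 1234 and 1048 CPM after culture. Col1a1, a collagen gene of connective tissue, had 4698 and 15020 counts before culture. The 8 muscle genes summed to 452 and 513 CPM, a fold of 1.13 (1.08 to 1.19), with Actc1 called higher at 72 and 367 counts. The 12 erythroid genes had a fold of 0.851 (0.764 to 0.948), the 10 leukocyte genes of 1.05 (0.932 to 1.18) and the 9 lymphatic genes of 0.964 (0.953 to 0.975). In the libraries before culture no marker of these lists was at 0. The part of these cells in the histone difference was not tested.

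**Figure D3:**
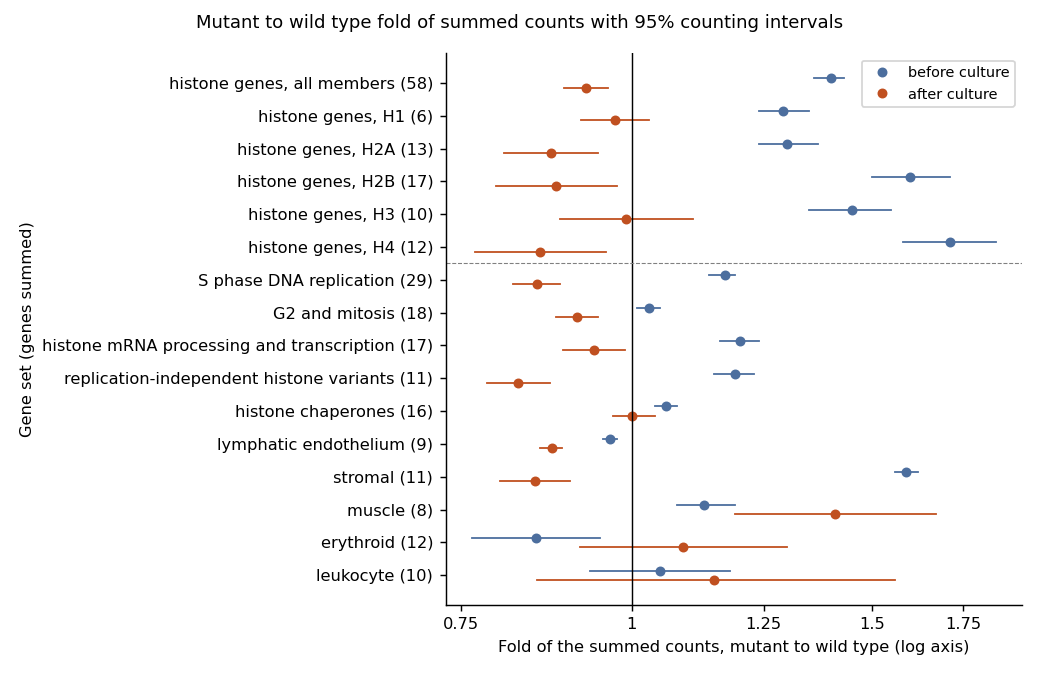
Mutant to wild type fold of summed counts (log axis) before and after culture for the histone classes, above the dashed line, and for other gene lists, below it. Lines are 95% counting intervals, and the number of genes summed is in parentheses. Before culture the histone sums lie at 1.29 or more, the stromal sum at 1.59, and the sums of histone mRNA processing, variants and S phase genes at 1.2, 1.19 and 1.17.

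The same comparison after culture gave a small difference in the other direction. The summed counts had a fold of 0.926 (0.892 to 0.961), and 35 of 49 members measured (71.4%) had a fold below 1, against 49.7% of all 12309 genes. No member's interval lay above 1, and 5 (10.2%) lay below it, against 9.48% and 12.3% of all genes, so the share of members below 1 by their interval was near that of all genes. The count of members called was 0 in each direction at 2-fold, beside 0.244% of all genes higher and 0.0731% lower, and 0 in each direction at 1.5-fold, beside 0.886% and 0.309%. With total counts as the scale the summed fold was 0.971 (0.935 to 1.01).

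The 5 members with an interval below 1 were Hist1h2af, Hist1h2ab, Hist1h2bb, Hist1h4d and Hist1h1c. Hist1h2af had 170 counts in the wild type and 258 in the mutant library after culture, 124 and 77.2 CPM, a fold of 0.624 (0.512 to 0.762). Hist1h2ab had 134 and 217 counts, 97.5 and 64.9 CPM, a fold of 0.666 (0.534 to 0.832). Hist1h4d had 193 and 336 counts, a fold of 0.716 (0.598 to 0.859), and Hist1h1c had 685 and 1446 counts, a fold of 0.868 (0.792 to 0.952). Hist1h2bb, named after its values were seen, had 59 and 98 counts, a fold of 0.683 (0.489 to 0.96). All 5 had intervals above 1 before culture. At the other end, Hist1h1b had 85 and 264 counts after culture, a fold of 1.28 (0.996 to 1.65), and Hist1h2ag, an H2A gene, had 21 and 83, a fold of 1.62 (0.997 to 2.76).

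Class folds after culture were 0.857 (0.768 to 0.958) for H4, 0.873 (0.806 to 0.945) for H2A, 0.881 (0.796 to 0.976) for H2B, 0.973 (0.918 to 1.03) for H1 and 0.99 (0.886 to 1.11) for H3. Relative to S phase genes, whose summed fold after culture was 0.852 (0.819 to 0.886), histone counts were still higher in the mutant library. The ratio was 1.07 and 1.16, a fold of 1.09 (1.03 to 1.15). By class this fold was 1.16 (1.03 to 1.31) for H3 and 1.14 (1.06 to 1.22) for H1, and for H2A, H2B and H4 its interval held 1. The genotype fold of the histone sum after culture divided by that before culture was 0.662 (0.633 to 0.692), and for the ratio of histone to S phase counts it was 0.905 (0.849 to 0.964).

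The next comparison follows each genotype over the culture, which the design text gives as a test of blood-forming potential. In the wild type, summed histone counts were 1.71 times as high after as before culture (1.65 to 1.78), and 45 of 54 members measured (83.3%) had a fold above 1, against 48.9% of all 17154 genes. At 2-fold, 5 members (9.26%) were called higher and 0 lower, beside 8.17% and 5.77% of all genes. At 1.5-fold, 12 (22.2%) were called higher and 0 lower, beside 16.7% and 12.7% of all genes. The shares called higher were thus near those of all genes. Total counts as the scale shifted every fold over culture by -0.62 on the log2 scale in the wild type and by -0.45 in the mutant. With background subtracted the recomputed factors alone shifted folds by -0.52 and -0.26, and the subtraction itself moved each gene differently. With total counts as the scale, 0 members were called higher and the summed fold was 1.11, and with background subtracted 1 was called and the summed fold was 1.25. No share of all genes called is given for these settings.

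Of the 5 called members, the H1 genes Hist1h1c and Hist1h1e had the most counts. Hist1h1c had 225 CPM before and 498 CPM after culture in the wild type, a fold of 2.21 (2.01 to 2.43), and Hist1h1e had 175 and 395 CPM, a fold of 2.26 (2.03 to 2.52). Hist1h1e overlaps Hist1h2be on the same strand in the annotation, so pairs in the shared stretch could not be assigned. Hist1h4d had 56.8 and 140.4 CPM, a fold of 2.47 (2.05 to 2.98). Hist2h2ab and Hist2h4, genes of the Hist2 cluster for H2A and H4, had 21 and 23 counts and 52 and 47 counts, with folds of 3.97 (2.1 to 7.54) and 3.28 (2.16 to 4.96). At the other end, Hist1h1t had 22 counts before and 1 after culture, a fold of 0.165 (0.00399 to 1.02), and Hist1h4i, an H4 gene, had 32 and 2, a fold of 0.227 (0.0263 to 0.888).

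In the mutant, the summed fold was nearer to 1 and its direction depended on the scale. It was 1.13 times as high after culture (1.11 to 1.16), but 0.831 times with total counts as the scale and 0.954 times with background subtracted. Of 58 members, 25 (43.1%) had a fold above 1 and 33 (56.9%) below 1, with 13 intervals (22.4%) on each side. Of all 18807 genes, 46.2% had a fold above 1 and 53.8% below 1, with 32.4% and 27% of intervals clear of 1. At 2-fold, 0 members were called higher and 2 (3.45%) lower, beside 5.19% and 3.62% of all genes. At 1.5-fold, 1 (1.72%) was called higher and 4 (6.9%) lower, beside 12.0% and 9.14% of all genes.

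The 2 members called lower were both of low count. Hist3h2ba, an H2B gene of the Hist3 cluster, had 36 counts before and 0 after culture in the mutant, where the limit set for a count of 0, which is 3 counts, equals 0.897 CPM, and its fold had an upper bound of 0.297. It had 16 and 0 counts in the wild type. Hist1h4a, an H4 gene, had 165 counts before and 15 after culture, 17.9 and 4.49 CPM, a fold of 0.25 (0.137 to 0.425), and 43 and 11 counts in the wild type. The member called higher at 1.5-fold was Hist1h1e, with 1821 and 1251 counts, or 198 and 374 CPM, a fold of 1.89 (1.76 to 2.04). Hist1h1c had 284 and 432 CPM, a fold of 1.52 (1.43 to 1.62), the next in order of the lower bound.

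**Figure D4:**
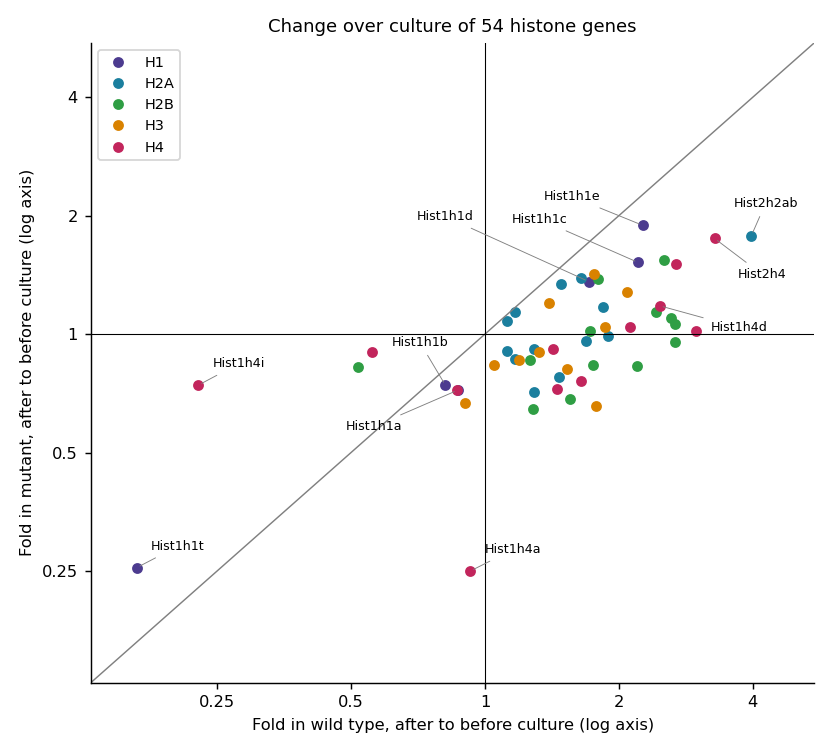
Fold after to before culture of 54 members in the wild type (horizontal, log axis) and in the mutant (vertical, log axis), by class. The 54 are those measured in both genotypes. The grey line marks equal folds. 50 of 54 points lie below it, and the named linker genes Hist1h1c, Hist1h1d and Hist1h1e lie apart from Hist1h1b and from Hist1h1a, whose point is hidden by that of Hist4h4. A point below the grey line has a lower genotype fold after than before culture, so this count restates those folds. The share of all genes below the line is not given.

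The linker genes differed among themselves over the culture. Hist1h1a had 37.7 and 62.3 CPM before culture in the wild type and the mutant and 32.7 and 44.9 CPM after it. Hist1h1b had 75.9 and 106 CPM before and 61.8 and 78.9 CPM after culture. Their intervals held 1 in the wild type and lay below 1 in the mutant, with folds of 0.868 (0.612 to 1.21) and 0.815 (0.636 to 1.03) in the wild type and 0.72 (0.597 to 0.863) and 0.741 (0.645 to 0.85) in the mutant. Hist1h1d, the third linker gene by counts, had 119 and 167 CPM before and 203 and 227 CPM after culture, with folds of 1.71 (1.47 to 1.97) and 1.36 (1.24 to 1.48), the latter 0.996 with total counts as the scale. The counts of Hist1h1c, Hist1h1d and Hist1h1e together were 4.57 times those of Hist1h1a and Hist1h1b in the wild type and 3.85 times in the mutant library before culture, and 11.6 and 8.35 times after it. That ratio changed over culture by a fold of 2.54 (2.07 to 3.1) in the wild type and 2.17 (1.93 to 2.44) in the mutant, and it does not depend on scaling. The ratio of H1 to core histone counts changed by 1.15 (1.07 to 1.25) and 1.42 (1.35 to 1.49).

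**Figure D5:**
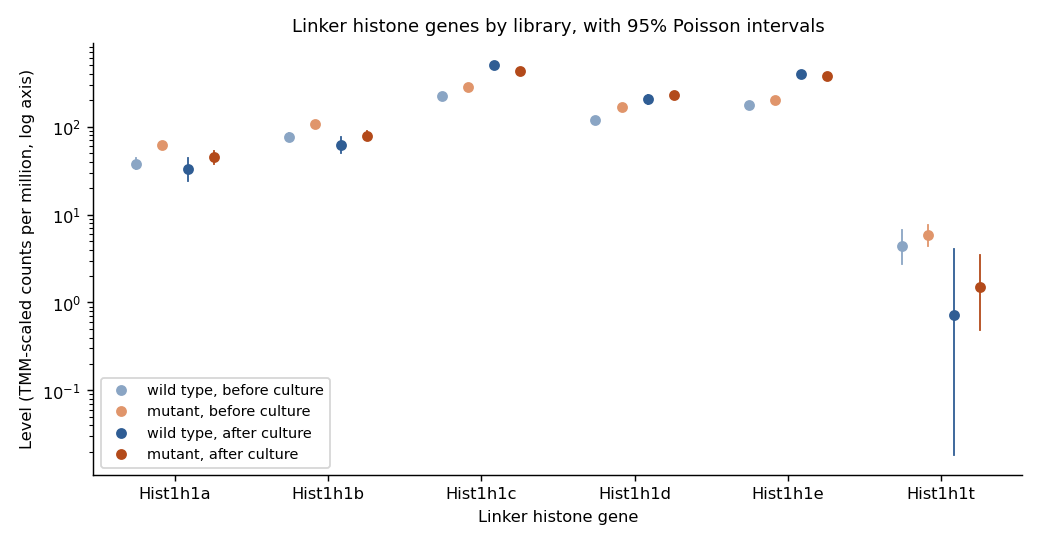
Level of each linker histone gene (TMM-scaled CPM, log axis) in the 4 libraries, with 95% Poisson intervals as lines. Hist1h1c, Hist1h1d and Hist1h1e are higher in both libraries after culture, except Hist1h1d in the mutant with total counts as the scale (fold 0.996), and the points of Hist1h1a, Hist1h1b and Hist1h1t lie lower, with wild type fold intervals that hold 1.

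Without H1, the 52 core histone members had a summed fold over culture of 1.62 (1.54 to 1.7) in the wild type and 0.99 (0.959 to 1.02) in the mutant. By class the wild type folds were 2.04 (1.82 to 2.28) for H4, 1.76 (1.58 to 1.94) for H2B, 1.49 (1.37 to 1.61) for H2A and 1.43 (1.28 to 1.6) for H3. In the mutant they were 1.02, 0.967, 0.995 and 0.978, with intervals that held 1, but with total counts as the scale 0.751, 0.709, 0.73 and 0.717. With total counts as the scale, the wild type folds of H2A and H3 were 0.964 and 0.93. S phase genes had summed folds of 1.26 (1.21 to 1.31) in the wild type and 0.921 (0.897 to 0.944) in the mutant, and the ratio of histone to S phase counts changed by 1.36 (1.29 to 1.43) and 1.23 (1.19 to 1.28). As a share of gene counts, S phase genes went from 0.272% to 0.222% in the wild type and from 0.294% to 0.199% in the mutant. With total counts as the scale, their rise in the wild type thus turned to a fall. The stromal sum had folds over culture of 0.363 and 0.193, with 9 of 11 genes below 1 in the wild type and 10 of 11 in the mutant, and Lum was at 0 in the wild type library after culture. Of the genes above 1, Prrx1 in the wild type had a fold of 1.57 and an interval above 1.

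Other genes that act on histones changed over culture as well. H3f3b, a gene of the variant H3.3, was called higher in the wild type with 233 and 515 CPM, a fold of 2.21 (2.01 to 2.43), and H2afy2, a macroH2A gene, was called lower in both genotypes with folds of 0.245 and 0.216. Slbp had 55.8 and 124 CPM in the wild type, a fold of 2.22 (1.82 to 2.69), and 73.6 and 90.3 CPM in the mutant, a fold of 1.23 (1.07 to 1.41). Daxx, the gene of a chaperone of H3.3, was called higher in the wild type with 38.5 and 137 CPM. Nasp, the gene of a chaperone of H1 and of H3 with H4, had folds of 0.49 and 0.489 and was not called. Of 17 processing genes, 0 were called in either genotype at 2-fold, where 8.17% and 5.19% of all genes were called higher. At 1.5-fold 4 were called higher in the wild type and 0 in the mutant, beside 16.7% and 12.0% of all genes.

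Position in the clusters was described next. On chromosome 13 the Hist1 members fell into 4 blocks separated by more than 100 kb, with 13, 5, 29 and 1 members. The summed mutant to wild type folds before culture were 1.52 (1.43 to 1.61), 1.37 (1.21 to 1.54) and 1.38 (1.34 to 1.43) for the first 3 blocks. Hist1h4k at chr13:21750194-21750505 and Hist1h2bn at chr13:21754123-21754503 both lie in the first. Over culture in the wild type these blocks had folds of 1.38 (1.25 to 1.53), 1.16 (0.936 to 1.42) and 1.86 (1.78 to 1.95). Their shares of gene counts went from 0.0357% to 0.0321%, from 0.00958% to 0.0072% and from 0.146% to 0.176%. With total counts as the scale, the first and second blocks thus fell and the third rose. The 6 members of the Hist2 cluster on chromosome 3 had folds of 1.31 (1.2 to 1.43) before culture by genotype and 1.7 (1.49 to 1.94) over culture in the wild type. In the Hist3 cluster on chromosome 11, Hist3h2a, an H2A gene, had 143 and 316 counts before culture and 44 and 104 after it, with a genotype fold before culture of 1.2 (0.978 to 1.47). Its neighbour, the pseudogene Hist3h2bb-ps, had 8, 26, 0 and 1 counts, and Hist4h4, the single member on chromosome 6, had 46, 157, 11 and 41, with a genotype fold before culture of 1.85 (1.32 to 2.62).

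A total of 10 pairs of members start back to back, each an H2A and an H2B gene with 163 to 248 nt between the annotated starts. The closest pair was Hist1h2ak and Hist1h2bn, with folds before culture of 1.69 and 2.24. Hist1h2ae and Hist1h2bg had 1.54 and 1.55, and Hist1h2ac and Hist1h2bc had 1.52 and 1.48. The folds of other pairs were less alike: Hist1h2bl and Hist1h2ai had 2.43 and 1.17, Hist1h2an and Hist1h2bp 1.73 and 0.946, Hist1h2bk and Hist1h2ah 1.63 and 0.933, and Hist1h2bf and Hist1h2ad 1.6 and 1.07.

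Promoters are shown for the 2 members with the highest lower bound before culture and for the linker gene with the most counts. The sequences are from RefSeq on GRCm38.p6 and hold the 150 bases before the annotated start. Capitals mark the TATA box (TATAAA), the CCAAT box, the octamer sequence (ATTTGCAT) and the linker histone motif (AAACACA), searched on both strands:
Hist1h4k, chr13:21750554-21750703, minus strand: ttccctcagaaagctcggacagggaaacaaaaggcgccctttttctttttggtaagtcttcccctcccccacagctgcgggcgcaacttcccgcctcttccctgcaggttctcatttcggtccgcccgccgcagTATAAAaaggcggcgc
Hist1h2bn, chr13:21753926-21754075, plus strand: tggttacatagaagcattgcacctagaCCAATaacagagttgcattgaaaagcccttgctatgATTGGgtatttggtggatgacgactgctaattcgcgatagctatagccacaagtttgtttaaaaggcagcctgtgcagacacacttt
Hist1h1c, chr13:23738657-23738806, plus strand: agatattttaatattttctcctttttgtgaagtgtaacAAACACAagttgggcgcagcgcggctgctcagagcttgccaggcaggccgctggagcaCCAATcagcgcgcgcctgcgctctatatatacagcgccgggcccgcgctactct
Over the 250 bases before the start, CCAAT was found in 84.6% of 52 members with a promoter sequence and 33.8% of all 32851 promoters. It was present in every H1, H2A, H2B and H3 promoter and in 3 of 11 H4 promoters, and Hist1h4k is not among those 3. TATAAA was found in 51.9% of members and 12.4% of all promoters. The octamer ATTTGCAT was found in 6 H2A and 6 H2B promoters, 23.1% of members against 1.6% of all, and windows of back-to-back pairs overlap, so a pair can share a match. AAACACA, known as the H1 box, was found in 5 of 6 H1 promoters and in 15.4% of members, against 6.25% of all promoters. A match is a description of the letters and not a measured binding site.

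Members were also split by the length of the annotated transcript. The 14 members with more than 1000 nt of annotated exon, which include Hist1h1c, Hist1h1d, Hist1h1e, Hist1h4d and Hist2h4, had a summed fold over culture of 1.96 (1.86 to 2.07) in the wild type and 1.39 (1.34 to 1.44) in the mutant. The other 44 had folds of 1.51 (1.43 to 1.59) and 0.946 (0.913 to 0.979). As a share of gene counts in the wild type, the 44 went from 0.117% to 0.114% and the 14 from 0.0971% to 0.124%. The wild type rise of the 44 thus did not hold with total counts as the scale. Without Hist1h1c, Hist1h1d and Hist1h1e, an alternative chosen after seeing the data, the longer members had folds of 1.67 (1.51 to 1.84) and 1.03 (0.963 to 1.1). The wild type interval then overlapped that of the shorter ones. For the genotype before culture the folds were 1.32 (1.27 to 1.37) for the longer and 1.47 (1.42 to 1.52) for the shorter, and 1.45 (1.36 to 1.55) for the longer without those 3 genes. In 21 members the annotation runs more than 100 nt past the stem-loop. Whether the reads came from forms with or without a poly(A) tail was not tested.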

How the data were processed

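The authors deposited raw counts, read pairs per gene symbol, in a table for each library. They worked with bcl2fastq, STAR and HTSeq 0.11.2 on build mm10, per the submitters' processing notes, and the file names state that duplicates were removed with sambamba. HTSeq's 5 summary classes were kept out of all totals. The annotation, strand setting and handling of pairs with several alignments are not stated in the labels. Gene counts were 7.94% to 10.5% of all pairs.

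Counts were scaled with TMM factors of 1.25, 1.16, 0.811 and 0.851 (edgeR 4.0.16, R 4.3.3). A fold is a ratio of scaled counts whose interval follows from an exact Clopper-Pearson interval, and levels have exact Poisson intervals. Ratios within a library have Wald intervals. A gene counted as measured in a comparison when either library had 20 counts or more. Self-tests on simulated counts were run. Gene positions and transcripts came from GENCODE vM21, and promoters from RefSeq.

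Members, lists and rules were chosen with earlier results of these data known. Named are Hist1h4k and Hist1h2bn, the 3 members of each class with the most scaled counts, members called between genotypes, and in each comparison the 2 members at each end, ranked by the interval bound nearest to 1. All members of a cluster or class of fewer than 4 are also named. The rule for the other lists took the 3 genes with the most counts and up to 3 called genes, of which only some are given, and Slbp, Npat, Nasp, Lum and others were chosen after their values were seen. Alternatives were DESeq2 1.42.0 median-of-ratios factors, total counts, subtraction of receptor-gene background per kb, no minimum or a minimum in both libraries, a 1.5-fold threshold, and sums without Hist1h1c.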

Additional observations from a re-analysis of the deposited data

Results flagged for a closer look

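The mutant to wild type fold lay above 1 before culture and below 1 after culture, with both counting intervals clear of 1, for the summed members, for 3 classes and for 5 single genes. The value given is the fold after culture divided by the fold before it. It was 0.662 for all members together, 0.67 for H2A, 0.551 for H2B and 0.502 for H4. Among single genes it was 0.688 for Hist1h1c, 0.528 for Hist1h2ab, 0.524 for Hist1h2af, 0.357 for Hist1h2bb and 0.476 for Hist1h4d. Of 12294 genes measured in both comparisons, 4.66% had such a pair of intervals, and of 49 members 10.2% did. With total counts as the scale, the intervals after culture reached 1 for all members (0.935 to 1.01), H2B (0.835 to 1.02) and H4 (0.805 to 1). Single members with such a pair were then 3, Hist1h1c, Hist1h2ab and Hist1h4d, as against 1.84% of all genes. With background subtracted they were also 3, Hist1h1c, Hist1h2bb and Hist1h4d, beside 2.49% of all genes. With 1 library per group, these differences were not tested against replicate error.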

How the results depend on the processing

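No paired analysis was possible because each group has 1 library and so the groups share fewer than 2 replicate numbers. An additive fit of genotype and culture, whose single residual would be the difference between the genotypes' culture folds, was not run. Before culture the mutant to wild type fold of the sum, 1.4, was 1.3 with total counts as the scale, 1.24 with background subtracted and 1.33 over members with at most 50% shared windows, an alternative chosen after seeing the data. At a 1.5-fold threshold 6 members were called higher. Combined with another scaling, a choice made after seeing the data, that threshold called 3 with total counts and 5 with either median-of-ratios factors or background subtracted. Shares of all genes called are given only for TMM scaling with the main count minimum, so counts called under other settings have none beside them. After culture the fold of 0.926 was 0.89 with median-of-ratios factors and 0.971 with total counts. Over culture in the wild type, 1.71 was 1.8 with median-of-ratios factors, 1.11 with total counts, 1.25 with background subtracted, 1.64 without Hist1h1c and 1.85 over members with at most 50% shared windows. The 5 members called higher were 0, 1 and 12 with total counts, background subtracted and a 1.5-fold threshold. In the mutant, 1.13 turned to 0.831 with total counts and 0.954 with background subtracted, and was 1.08 without Hist1h1c and 1.31 over members with at most 50% shared windows. The 2 called lower were 4 with total counts, 4 at 1.5-fold and 0 with 20 counts required in both libraries, and 1 was called higher at 1.5-fold. Among values whose interval lay clear of 1, with total counts the direction also turned for H2A (0.964), H3 (0.93) and Hist1h2ab (0.955) over culture in the wild type, and for Hist1h1d (0.996) and Hist1h4d (0.863) in the mutant. With background subtracted it turned for Hist1h4d in the mutant (0.986) and for Hist1h1e before culture (0.987). Of 104 folds of named members, 104 moved by less than their counting interval with median-of-ratios factors and 63 with total counts. With background subtracted 74 of 103 did. The cause of these differences was not tested. The wild type library after culture was the shallowest, and 49 of 58 members could be measured between genotypes after culture.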
